A study of Drosophila melanogaster with 9 samples.

Results

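The comparison described here sets embryos made to overexpress the zinc finger gene cabut (cbt, also dTIEG) against embryos mutant for it. It uses 6 of the 9 arrays of the series, chosen by their labels alone, each hybridised with biotin-labelled total RNA of whole dechorionated Drosophila melanogaster embryos. In 3 arrays, labelled Cbt>69B, the epidermal driver 69B-Gal4 directed a UAS-Cbt transgene. In the other 3, labelled cbtEP(2)2237E1 and called the mutant below, the labels give the embryos as homozygous for a P-element allele of cbt, picked by an embryo sorter as the animals without GFP from a stock carrying a Cy0, twi-eGFP balancer. The 3 remaining arrays of the series, from white 1118 (w1118) embryos, entered no test and are given as levels only, because they did not form a single cluster. All embryos were labelled as stages 10 to 13, and each sample of the 2 compared groups came from about 1000 embryos. The driver acts in the epidermis, so a whole-embryo sample also holds many cells outside its reach. No embryos with the driver alone were analysed here, and differences between the stocks other than cbt cannot be told apart from those that cbt makes. In whole embryos, fewer cells of a type and less RNA per cell cannot be told apart either. The labels do not say whether the replicates of a group were collected separately, so the p-values reflect only how far these samples scattered, and part of that scatter may be technical.

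Cabut belongs to the TIEG family of Krüppel-like transcription factors. In the fly embryo it is needed for dorsal closure, in which the lateral epidermis of both flanks is drawn over the amnioserosa until the sheets meet at the dorsal midline. JNK signalling in the leading row of epidermal cells, the ligand Dpp that these cells send out, the contracting amnioserosa and actin cables anchored at adherens junctions all take part. Later in life cbt also takes part in the response to sugar and in growth control.

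Values below are the deposited log2 levels of a probe set. A difference is the Cbt>69B mean minus the mutant mean on that scale, so a positive one means higher in Cbt>69B, and 1 unit is a factor of 2. The targeted gene was examined first. The cbt probe set stood at 3.17, 3.16 and 3.74 in the arrays labelled Cbt>69B, against 4.25, 4.70 and 3.85 in those labelled cbtEP(2)2237E1, and at 6.22, 6.05 and 7.90 in w1118. All 3 arrays labelled Cbt>69B thus lay below all 3 mutant arrays, which goes against the label, and both groups lay below w1118. The difference was -0.91 (SE 0.26, limma adjusted p = 0.0658) and did not pass the threshold of 0.05. Whether the transgene contains the stretch of the transcript that the probes read was not analysed here. "Cbt>69B" therefore names the arrays with that label throughout, and each direction below is that of these labelled arrays.

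The arrays within a group were alike, with Pearson correlations over all probe sets of 0.982 to 0.992 among the Cbt>69B arrays and 0.969 to 0.989 among the mutant arrays. Between the groups the correlations were 0.919 to 0.968. The w1118 arrays were split. Replicate 2 of w1118 correlated at 0.968 to 0.981 with the Cbt>69B arrays and at 0.957 to 0.970 with the mutant arrays. With w1118 replicates 1 and 3 it correlated at only 0.890 and 0.894. Those 2 replicates correlated at 0.842 to 0.886 with the Cbt>69B arrays and at 0.922 to 0.955 with the mutant arrays. Several control measures moved with the groups. The upper quartile of the levels was 3.14 to 3.43 in Cbt>69B and 3.73 to 3.88 in the mutant. The mean of the hybridisation spike-in controls was 8.74 to 9.14 in Cbt>69B and 7.79 to 8.38 in the mutant. The highest of the Tag controls, a class with no fly target, was used here as each array's background level. It stood at 0.83 to 1.20 in Cbt>69B and 0.63 to 0.75 in the mutant. The 3' end minus the 5' end of the ACTIN control transcript was 4.82 to 5.57 in Cbt>69B and 3.16 to 3.49 in the mutant, a larger gap in every Cbt>69B array, whereas the same measure for GAPDH was 1.15 to 1.79 in Cbt>69B and 1.74 to 2.14 in the mutant. The w1118 arrays were split on these measures too. In w1118 replicates 1, 2 and 3 the ACTIN gap was 3.18, 4.75 and 3.36. The upper quartile was 4.03, 3.45 and 3.99, and the background level was 0.58, 0.95 and 0.58. Here replicate 2 lay within or closest to the Cbt>69B range, and replicates 1 and 3 lay closer to the mutant. The spike-in mean of replicate 2, 8.64, lay between the groups, and its GAPDH measure, 1.74, lay within the ranges of both. Of 100 control probe sets kept out of the tests, 2 were high in the mutant arrays alone. One stood at 1.08, 1.10 and 1.15 in Cbt>69B, against 5.93, 5.72 and 4.74 in the mutant, and at 0.59, 1.10 and 1.13 in w1118. The annotation used here does not name its target. Its array name carries a sequence-database number that may belong to a GFP vector, so whether it reads the GFP of the balancer, and with it how fully GFP embryos were removed from the mutant samples, was not tested and is a doubt about the genotype of these arrays. The part of all these measures in the results below was not tested.

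Of 18769 probe sets, 2595 (13.8%) differed between the groups at an adjusted p under 0.05. In Cbt>69B, 1179 (6.28%) were higher and 1416 (7.54%) lower. Falls were larger than rises, with a median of -1.34 among the falls and 0.96 among the rises, and 251 falls but 57 rises reached 2 log2 units. Calls of at least 1 unit numbered 1594 (8.49%), of which 537 (2.86%) were higher and 1057 (5.63%) lower. In 7243 probe sets (38.6%) all arrays of one group lay above all of the other, 4199 higher (22.4%) and 3044 lower (16.2%) in Cbt>69B. Rises and falls also lay at different levels. Among probe sets with a mean level of 2 to 4, 209 rose and 641 fell, whereas among those at 6 to 8, 302 rose and 117 fell. The split depended on the scaling between arrays. With array medians set equal 850 rose and 1691 fell, and with quantile normalization 1394 rose and 851 fell. The median difference over all probe sets was 0.08, against -0.04 with medians set equal. The calls named 976 genes that rose and 1198 that fell.

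**Figure D1:**
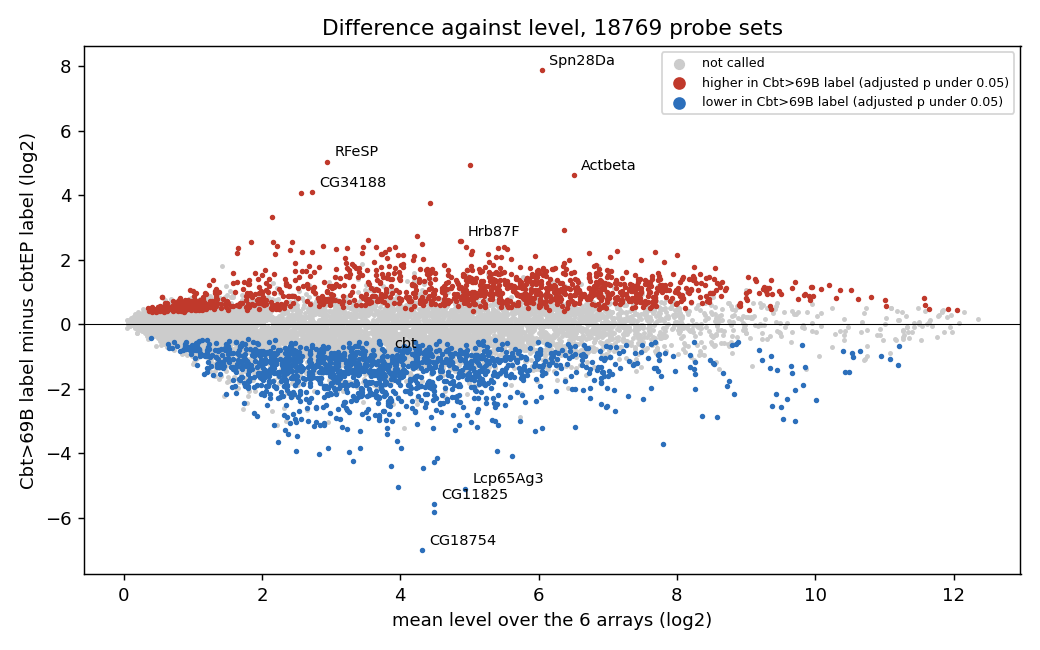
Difference between the arrays labelled Cbt>69B and cbtEP(2)2237E1 (log2, vertical axis) against the mean level over the 6 arrays (log2, horizontal axis) for 18769 probe sets. Red points are the 1179 probe sets called higher and blue points the 1416 called lower in Cbt>69B, and grey points were not called; falls gather at levels of 2 to 4, and Spn28Da and CG18754 lie farthest out.

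The number of calls rested strongly on single arrays. It was 911, 1278 and 137 without Cbt>69B replicates 1, 2 and 3, and 3423, 1454 and 1061 without mutant replicates 1, 2 and 3. Of the 158 called genes named below, 19 passed without each of the 6 arrays in turn. These were the rises in Spn28Da, RFeSP, CG34188, EndoU, fit, CG11170, Hrb87F, sev, PH4alphaSG2, blow, mRpL54 and AlaRS and the falls in CG18754, Lcp65Ag3, CG34025, CG15098, Hsp27, Mst85C and mael. Of the other genes, 139 lost their call without Cbt>69B replicate 3, with adjusted p of 0.0502 to 0.154. None changed direction under any alternative run, though several of these leave a difference unchanged by construction.

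The largest rise was in Spn28Da, a gene of the serpin family of protease inhibitors. It stood at 10.19, 9.87 and 9.92 in Cbt>69B, against 1.85, 1.39 and 3.06 in the mutant, a difference of 7.89 (SE 0.40, adjusted p = 0.000622). The w1118 arrays, at 0.51, 1.07 and 0.64, were as low as the mutant or lower. RFeSP encodes the Rieske protein, an iron-sulfur subunit of the respiratory chain. On one probe set it stood at 5.61, 5.39 and 5.39 in Cbt>69B, against 0.43, 0.47 and 0.35 in the mutant, where it did not exceed background, and it was at least 27.0-fold higher in Cbt>69B (adjusted p = 2.71e-05). Its other and brighter probe set rose by 1.21 (adjusted p = 0.0181). This disagreement between probe sets of one gene recurred in CG34188, which rose by 4.10 on one probe set and differed by -0.01 on another that stayed at background, and in EndoU, an endoribonuclease gene, which was at least 14.9-fold higher on one probe set and differed by -0.30 on the other (adjusted p = 0.58).

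Actbeta, which encodes an activin-like ligand of the TGF-beta family, stood at 9.01, 8.76 and 8.69 in Cbt>69B, against 5.91, 2.66 and 4.0 in the mutant. The mutant arrays were low and scattered, while w1118 stood at 8.04, 9.33 and 8.06, beside Cbt>69B. The difference was 4.63 (SE 0.74, adjusted p = 0.0149), and it lost its call without Cbt>69B replicate 1, 2 or 3 (adjusted p = 0.0592, 0.0513 and 0.0754). At 4.40, 3.22 and 3.84 in Cbt>69B, against 0.51, 0.55 and 0.37 in the mutant, where it stayed at background, fit rose at least 8.63-fold (adjusted p = 0.00335). Acbp1, of the family of acyl-CoA binding proteins, rose by 2.92, CG11170 by 2.73, CG2663 by 2.63 and GstD3, a glutathione transferase gene, by 2.60. Without Cbt>69B replicate 3 the calls of Acbp1, CG2663 and GstD3 were lost (adjusted p = 0.0583, 0.054 and 0.054).

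Hrb87F encodes an hnRNP protein that binds nascent RNA. It stood at 6.05, 6.22 and 6.17 in Cbt>69B, against 3.53, 3.50 and 3.70 in the mutant (difference 2.57, SE 0.11, adjusted p = 0.000338). The w1118 levels of 9.32, 6.55 and 9.25 lay above both groups. The receptor tyrosine kinase gene sev, best known for specifying a photoreceptor of the eye, rose by 2.56 (adjusted p = 0.00381). It stood at 4.22, 3.36 and 3.58 in Cbt>69B, against 1.18, 1.22 and 1.07 in the mutant.

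The largest fall was in CG18754. It stood at 1.36, 0.64 and 0.44 in Cbt>69B, against 7.85, 7.83 and 7.76 in the mutant, a difference of -7.00 (SE 0.24, adjusted p = 0.000118). The w1118 arrays at 0.26, 2.41 and 1.60 were low as well, so only the mutant arrays were high. CG11825 stood at 1.51, 2.03 and 1.57 in Cbt>69B, against 8.77, 7.61 and 5.46 in the mutant (difference -5.58, adjusted p = 0.0106), and at 5.78, 7.05 and 8.18 in w1118. CG18649 fell by 4.46, Try29F, a trypsin-like protease gene, by 4.25, CG33272 by 3.97 and CG15098 by 3.84. In CG34025, at background in Cbt>69B, the mutant was the higher group by at least 13.6-fold (adjusted p = 0.00115). The remaining genes of the 12 largest falls were cuticle genes, described below. The call of CG18649 was lost without Cbt>69B replicate 1 or 3 (adjusted p = 0.06 and 0.0774), that of CG33272 without Cbt>69B replicate 1, 2 or 3 (0.0806, 0.0603 and 0.0929), and those of CG11825 and Try29F without replicate 3 (0.067 and 0.0633). The CG33272 probe set is of a kind that can bind transcripts of other genes.

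**Figure D2:**
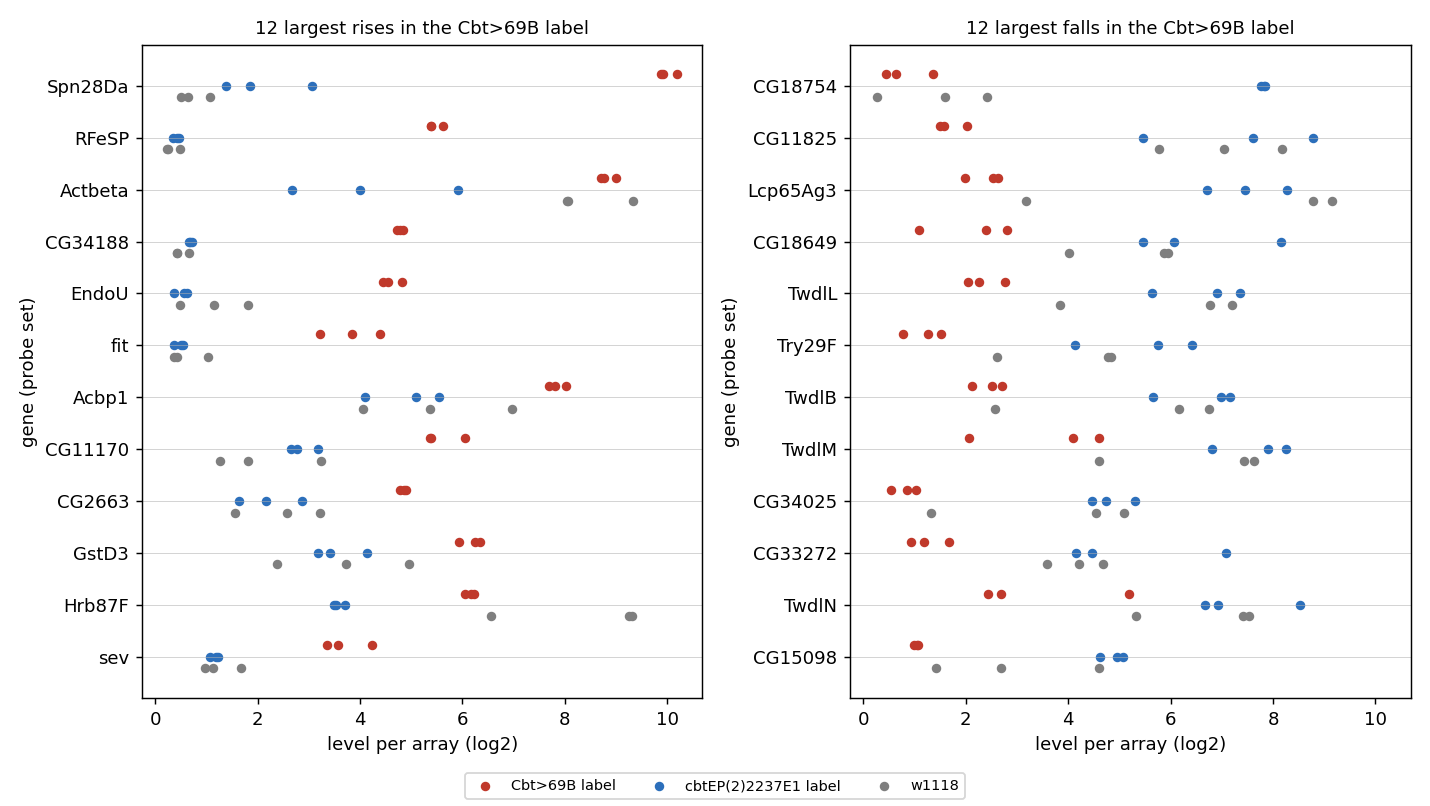
Log2 level on each array (horizontal axis) of the 12 genes with the largest rises (left) and the 12 with the largest falls (right) in the arrays labelled Cbt>69B, 1 point per array. Red points are Cbt>69B, blue points cbtEP(2)2237E1 and grey points w1118; for Actbeta and Hrb87F the w1118 points lie on the Cbt>69B side, and for CG18754 on the Cbt>69B side as well.

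The gene groups below are counted on the brightest probe set of each gene. Over all 11982 named genes, 950 (7.93%) rose and 1164 (9.71%) fell in Cbt>69B on that count, with a median difference of 0.04. In the JNK, Dpp, activin and cytoskeleton lists of dorsal closure falls were more numerous than rises, and the amnioserosa list had 1 of each. Median levels on the 6 arrays were 3.62 to 4.74 for the JNK list and 2.84 to 4.47 for the Dpp list. Among all probe sets at a mean level of 2 to 4, 641 of 2630 fell and 209 rose. At 4 to 6, 422 of 2450 fell and 329 rose. The part of the level in these counts was not tested. Of 18 genes of the JNK cascade, 0 rose and 4 fell, and the median was -0.68. The largest fall was in aop, which encodes the ETS repressor Yan that JNK and Ras signalling relieve. It stood at 3.63, 3.89 and 3.0 in Cbt>69B, against 4.47, 5.44 and 6.01 in the mutant (difference -1.80, adjusted p = 0.0362). The other falls, named after their values were seen, were Tab2 (-1.22), an adaptor of the kinase Tak1, puc (-0.81), a phosphatase that JNK signalling induces and that shuts the kinase off, and msn (-0.74), a kinase upstream of the cascade. puc stood at 1.64, 1.67 and 1.29 in Cbt>69B, against 2.12, 2.76 and 2.16 in the mutant, and did not overlap between the groups. The JNK gene itself, bsk, fell by 2.15 on a dimmer probe set (adjusted p = 0.0338) and differed by -1.44 on its brightest one (adjusted p = 0.101). Leaving out Cbt>69B replicate 3 left 0 of the 18 past the threshold, and leaving out mutant replicate 1 left 7 falls. With quantile normalization 1 rose and 0 fell, at a median of -0.24.

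Of 17 genes of the Dpp pathway, 1 rose and 4 fell (median -0.18). tld, a protease that frees Dpp from its inhibitor, stood at 2.12, 2.32 and 2.22 in Cbt>69B, against 3.63, 4.47 and 4.21 in the mutant (difference -1.88, SE 0.22, adjusted p = 0.00793). In w1118 it stood at 3.48, 4.48 and 4.25, the range of the mutant. The type I receptor gene sax fell by 1.47. The related protease gene tok (-1.41) and Smurf (-1.25), a ubiquitin ligase that removes the signal transducer Mad, also fell and are named here after their values were seen. The co-Smad gene Med rose by 0.50 (adjusted p = 0.0449). The ligand gene dpp itself stood at 1.96, 1.67 and 1.92 in Cbt>69B, against 1.64, 2.75 and 2.25 in the mutant, and the groups overlapped. In the activin branch, where Actbeta rose, mav, another TGF-beta ligand gene, fell by 1.60. The Smad gene Smox (-1.16) and, seen afterwards, the receptor gene babo (-0.95) also fell, and both were at background in Cbt>69B. In these genes the mutant was the higher group by at least 1.895-fold and 1.585-fold. Of the 17 Dpp genes 0 passed without Cbt>69B replicate 3, and 7 fell without mutant replicate 1. The activin list had 0 calls without Cbt>69B replicate 3.

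The amnioserosa list of 13 genes had 1 rise and 1 fall, and its median of -0.02 turned positive with cyclic loess and with quantile normalization (0.20 in both). Doc1, a T-box gene that marks this tissue, stood at 3.34, 4.16 and 3.61 in Cbt>69B, against 4.60, 5.61 and 5.93 in the mutant (difference -1.67, adjusted p = 0.0339). Its neighbours in the same gene cluster did not pass, Doc2 at 0.69 and Doc3 at -1.25. Ance, a peptidase related to the angiotensin-converting enzyme, rose by 0.75 at a high level in both groups. Neither Ance nor Doc1 passed without Cbt>69B replicate 3. Summed over 6 amnioserosa markers, the log2 level was 6.64 to 6.74 in Cbt>69B and 6.55 to 7.65 in the mutant, so the groups overlapped.

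Among 25 genes of the cytoskeleton and adherens junctions, 1 rose and 8 fell (median -0.39). The apical polarity gene crb, also an epidermal marker, stood at 2.69, 4.15 and 3.80 in Cbt>69B, against 5.0, 5.86 and 5.01 in the mutant (difference -1.75, adjusted p = 0.0401). It did not overlap between the groups. The basolateral polarity gene scrib fell by 1.42 on one of its probe sets, whereas its others did not pass, with values from -0.29 to 0.36. On the brightest probe sets the single rise was in jub, an adherens junction protein that restrains Hippo signalling, which stood at 6.22, 5.73 and 5.88 in Cbt>69B, against 4.61, 4.83 and 5.0 in the mutant (difference 1.13, adjusted p = 0.0131). The polarity gene sdt, a partner of crb, rose by 0.61 on a dimmer probe set (adjusted p = 0.0312) and was at -0.01 on its brightest one. Leaving out Cbt>69B replicate 3 left 0 of these genes past the threshold, and leaving out mutant replicate 1 left 12 falls. With quantile normalization 2 fell. Of the other epidermal markers, grh was at 5.48, 6.05 and 6.19 in Cbt>69B and at 5.71, 6.24 and 6.02 in the mutant, which overlapped. The cadherin gene shg differed by -0.90 with no overlap between the groups, but did not pass (adjusted p = 0.119). Summed over the 3 epidermal markers, the log2 level was 5.774 to 6.515 in Cbt>69B and 6.474 to 7.182 in the mutant, so the groups overlapped.

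**Figure D3:**
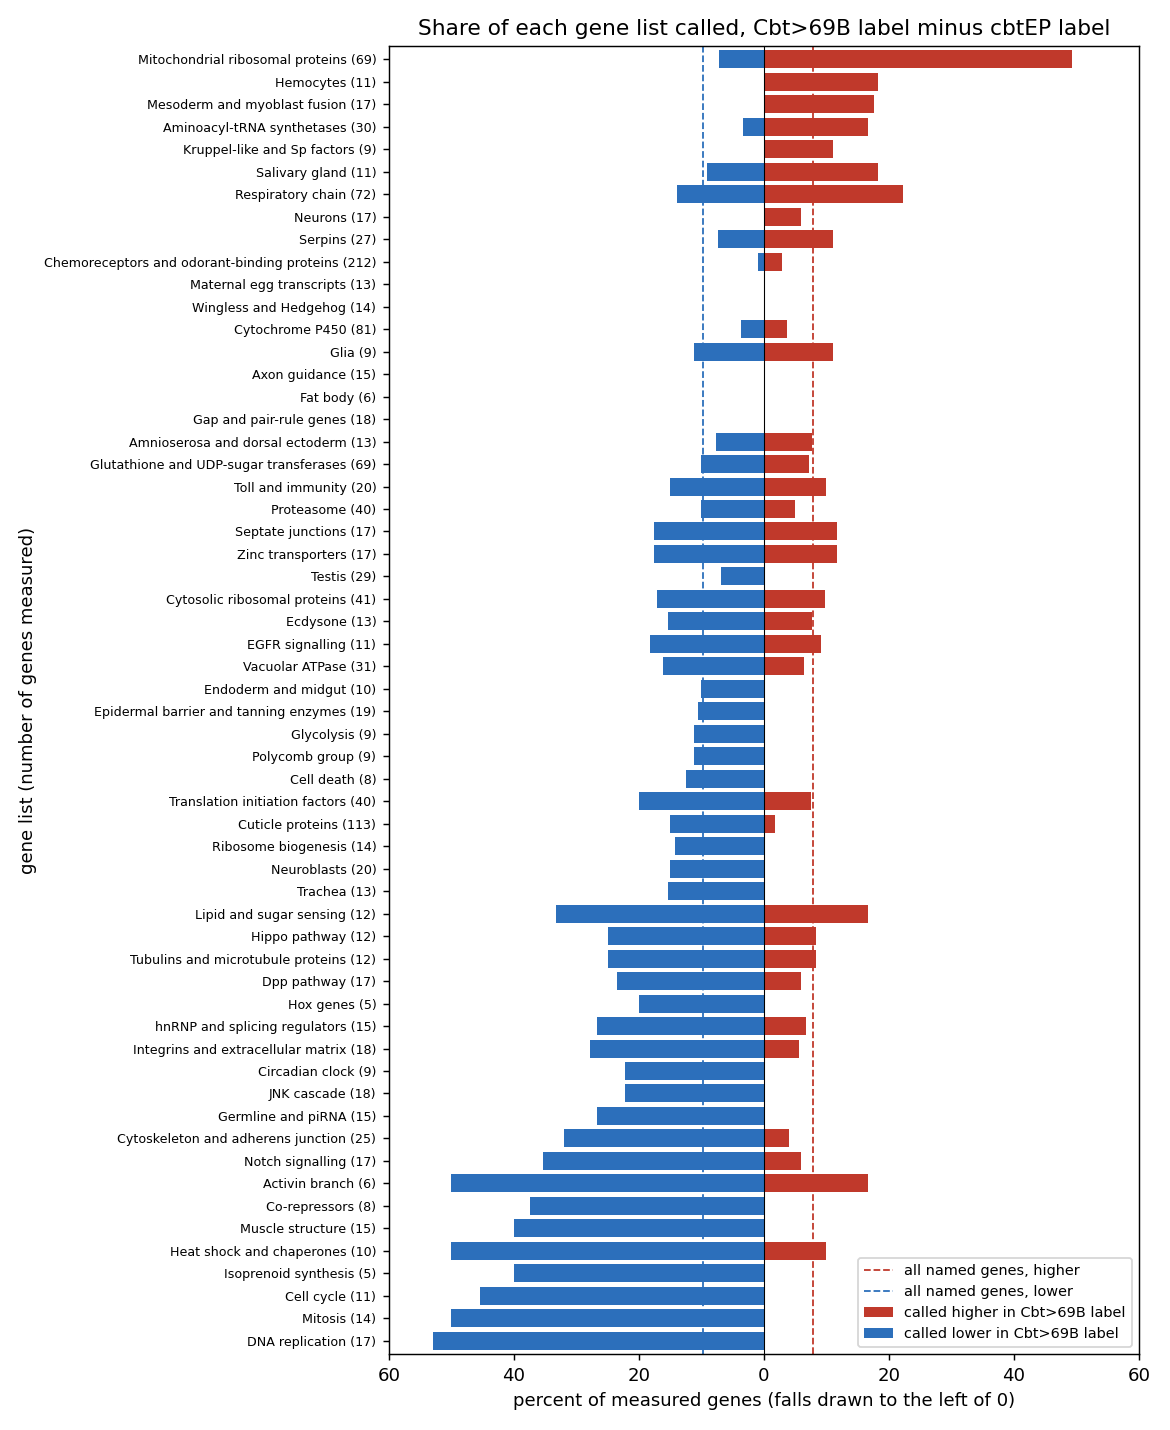
Percent of the measured genes of each list called higher (red bars, to the right) or lower (blue bars, to the left) in the arrays labelled Cbt>69B, with the number of genes measured beside each list name. Dashed lines mark the shares over all 11982 named genes, 7.93% higher and 9.71% lower; mitochondrial ribosomal proteins reach farthest to the right and DNA replication farthest to the left.

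Cuticle genes, which the epidermis turns on to build the larval exoskeleton, made up 5 of the 12 largest falls. Of 113 measured, 17 fell and 2 rose, while the list median was -0.06. Lcp65Ag3, a larval cuticle protein gene, stood at 2.53, 2.64 and 2.00 in Cbt>69B, against 8.27, 7.46 and 6.71 in the mutant (difference -5.09, SE 0.39, adjusted p = 0.00289). It lies among near-identical copies, so its probes may read these too. The Tweedle genes encode another family of cuticle proteins. TwdlL stood at 2.26, 2.76 and 2.05 in Cbt>69B, against 6.90, 5.63 and 7.36 in the mutant (difference -4.27, adjusted p = 0.00579), and TwdlB, TwdlM and TwdlN fell by 4.15, 4.07 and 3.93. In TwdlN the Cbt>69B arrays were scattered, at 2.44, 5.18 and 2.70, against 8.52, 6.67 and 6.92 in the mutant. The rises, in Cpr47Ec (0.63) and Cpr92A (0.60), were at levels near background.

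For these cuticle genes w1118 replicates 1 and 3 lay with the mutant and replicate 2 lay nearer to Cbt>69B, with Lcp65Ag3 at 8.78, 3.18 and 9.15 and TwdlB at 6.76, 2.57 and 6.17. Leaving out Cbt>69B replicate 3 left 1 cuticle gene that fell, and leaving out mutant replicate 2 left 21. The calls of TwdlL and TwdlB were lost without Cbt>69B replicate 3 (adjusted p = 0.054 and 0.0502), that of TwdlM without Cbt>69B replicate 3 or mutant replicate 3 (0.054 and 0.0585), and that of TwdlN without Cbt>69B replicate 1 or 3 or mutant replicate 3 (0.0948, 0.111 and 0.0703).

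Among 19 genes of the epidermal barrier and tanning enzymes, 0 rose and 2 fell, tyn (-1.32), of the zona pellucida domain family, and kkv (-1.03), the chitin synthase gene. Of 13 tracheal genes 2 fell, the chitin deacetylase gene serp and pio, both by 0.92, and pio did not pass on its other probe sets. Among 17 septate junction genes 2 rose and 3 fell. The claudin gene kune stood at 4.26, 5.10 and 5.13 in Cbt>69B, against 6.09, 6.94 and 6.08 in the mutant (difference -1.54, adjusted p = 0.0301). Lac, an immunoglobulin domain protein of the junction, fell by 1.71, whereas crok and cold, which help assemble it, rose by 0.77 and 0.79. Of 18 genes of integrins and extracellular matrix, 1 rose and 5 fell, among them vkg, a collagen IV chain (-1.86), and LanB2, a laminin chain (-1.36), while the laminin gene wb rose by 0.52. With cyclic loess or quantile normalization 2 matrix genes fell. None of the genes of these 4 lists passed without Cbt>69B replicate 3.

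Of 15 muscle structure genes, 0 rose and 6 fell, with a median of -1.08. The myosin light chain gene Mlc1 stood at 3.05, 3.49 and 3.30 in Cbt>69B, against 7.46, 5.83 and 5.94 in the mutant (difference -3.13, SE 0.43, adjusted p = 0.0106). The tropomyosin gene Tm2 stood at 0.95, 1.29 and 0.91 in Cbt>69B, against 4.68, 3.31 and 3.52 in the mutant (difference -2.79, adjusted p = 0.00942). The groups did not overlap in either gene. In w1118 replicates 1 and 3 both genes were higher than in either group, with Mlc1 at 8.02 and 7.59, while in replicate 2 Mlc1 was at 2.49. Of 17 genes that act earlier, in the mesoderm and in myoblast fusion, 3 rose and 0 fell, at a median of -0.06 that turned positive with cyclic loess (0.08) and quantile normalization (0.23), and the difference between these lists was not tested. blow, needed for myoblasts to fuse, stood at 5.75, 5.62 and 5.57 in Cbt>69B, against 4.10, 4.38 and 3.98 in the mutant (difference 1.49, SE 0.14, adjusted p = 0.00466). kirre, the adhesion receptor of founder cells, rose by 1.06, and rols, its partner inside the cell, seen afterwards, by 0.66. Leaving out Cbt>69B replicate 3 left 0 muscle structure genes past the threshold, at a median of -1.01, and 1 mesoderm gene.

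The Enhancer of split complex holds the direct targets of Notch, mostly basic helix-loop-helix repressors (HLH) and Bearded-family proteins (BFM). Of 17 genes of Notch signalling 1 rose and 6 fell, with a median of -0.48. E(spl)m7-HLH stood at 2.93, 4.69 and 3.99 in Cbt>69B, against 5.91, 7.84 and 6.87 in the mutant (difference -3.0, SE 0.59, adjusted p = 0.0251). E(spl)m4-BFM stood at 3.17, 4.22 and 4.12 in Cbt>69B, against 5.83, 7.76 and 6.83 in the mutant (difference -2.97, adjusted p = 0.0178). Seen afterwards, E(spl)m5-HLH, E(spl)malpha-BFM and E(spl)mdelta-HLH fell by 2.55, 2.44 and 2.06. The sixth fall was in mam, a co-activator of Notch (-0.90), and E(spl)mbeta-HLH was at -1.13 (adjusted p = 0.0592). The complex did not move as one. E(spl)m3-HLH, the member with the brightest probe set, stood at 9.25, 9.26 and 9.29 in Cbt>69B, against 8.88, 8.91 and 8.68 in the mutant. It rose by 0.44 (adjusted p = 0.0456). E(spl)m2-BFM was at -0.08 and E(spl)m6-BFM at 0.97, and neither passed. Without Cbt>69B replicate 3 none of the 17 passed, and without mutant replicate 1, 8 fell.

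Among genes of DNA replication and cell division, falls and no rises were called. Of 17 replication genes 0 rose and 9 fell (median -1.18), of 14 mitosis genes 0 rose and 7 fell (median -0.62), and of 11 cell cycle regulators 0 rose and 5 fell (median -0.83). PCNA, the sliding clamp of the replication fork, stood at 4.53, 6.41 and 5.86 in Cbt>69B, against 7.41, 8.26 and 8.01 in the mutant (difference -2.29, adjusted p = 0.0293). RnrL, the large subunit of the enzyme that makes deoxyribonucleotides, fell by 1.92. The mitotic cyclin gene CycB3 stood at 4.31, 4.02 and 3.59 in Cbt>69B, against 5.73, 6.95 and 6.12 in the mutant (difference -2.29, adjusted p = 0.0122). Cdk2, the kinase of the S phase, fell by 1.56.

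In mitosis, the spindle checkpoint genes mad2 and Bub3 fell by 1.89 and 1.81. Bub3 stood at 5.62, 6.29 and 6.10 in Cbt>69B, against 7.34, 8.07 and 8.03 in the mutant. The medians of the 3 lists stayed negative under each scaling alternative, from -1.31 to -0.78 for replication, -0.79 to -0.66 for mitosis and -0.95 to -0.78 for the cell cycle. The counts did not hold as well, since 0 genes of each list passed without Cbt>69B replicate 3, and 12, 8 and 8 fell without mutant replicate 1. Among 20 neuroblast genes, which mark dividing neural stem cells, 0 rose and 3 fell, with l(1)sc, a proneural gene, at -1.76 and dpn, a repressor that keeps the stem cell state, at -1.09, and again 0 passed without Cbt>69B replicate 3.

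Among the lists, mitochondrial ribosomal proteins gave the most rises. Of 69 genes 34 rose and 5 fell, with a median of 0.62 that lay between 0.49 and 0.58 under the scaling alternatives and with the length trend removed. Many of these genes are short and bright, where rises were more frequent than over all genes. Among all probe sets at a mean level of 6 to 8, 302 of 1222 rose. Of those above 2 for genes of up to 1 kb, 28.0% rose. mRpL54 stood at 7.58, 7.14 and 7.23 in Cbt>69B, against 5.45, 5.35 and 5.42 in the mutant (difference 1.91, SE 0.14, adjusted p = 0.00284). mRpL10 stood at 8.24, 7.52 and 7.75 in Cbt>69B, against 6.56, 5.61 and 6.29 in the mutant (difference 1.69, adjusted p = 0.0176). In each of these genes all Cbt>69B arrays lay above all mutant arrays. The other way went mRpS30, which fell by 1.80 (adjusted p = 0.0113), and mRpS9, which fell by 1.75 (adjusted p = 0.0496). The count of rises fell to 2 without Cbt>69B replicate 3, 15 and 19 without Cbt>69B replicates 1 and 2, and 27 to 34 without a mutant array.

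**Figure D4:**
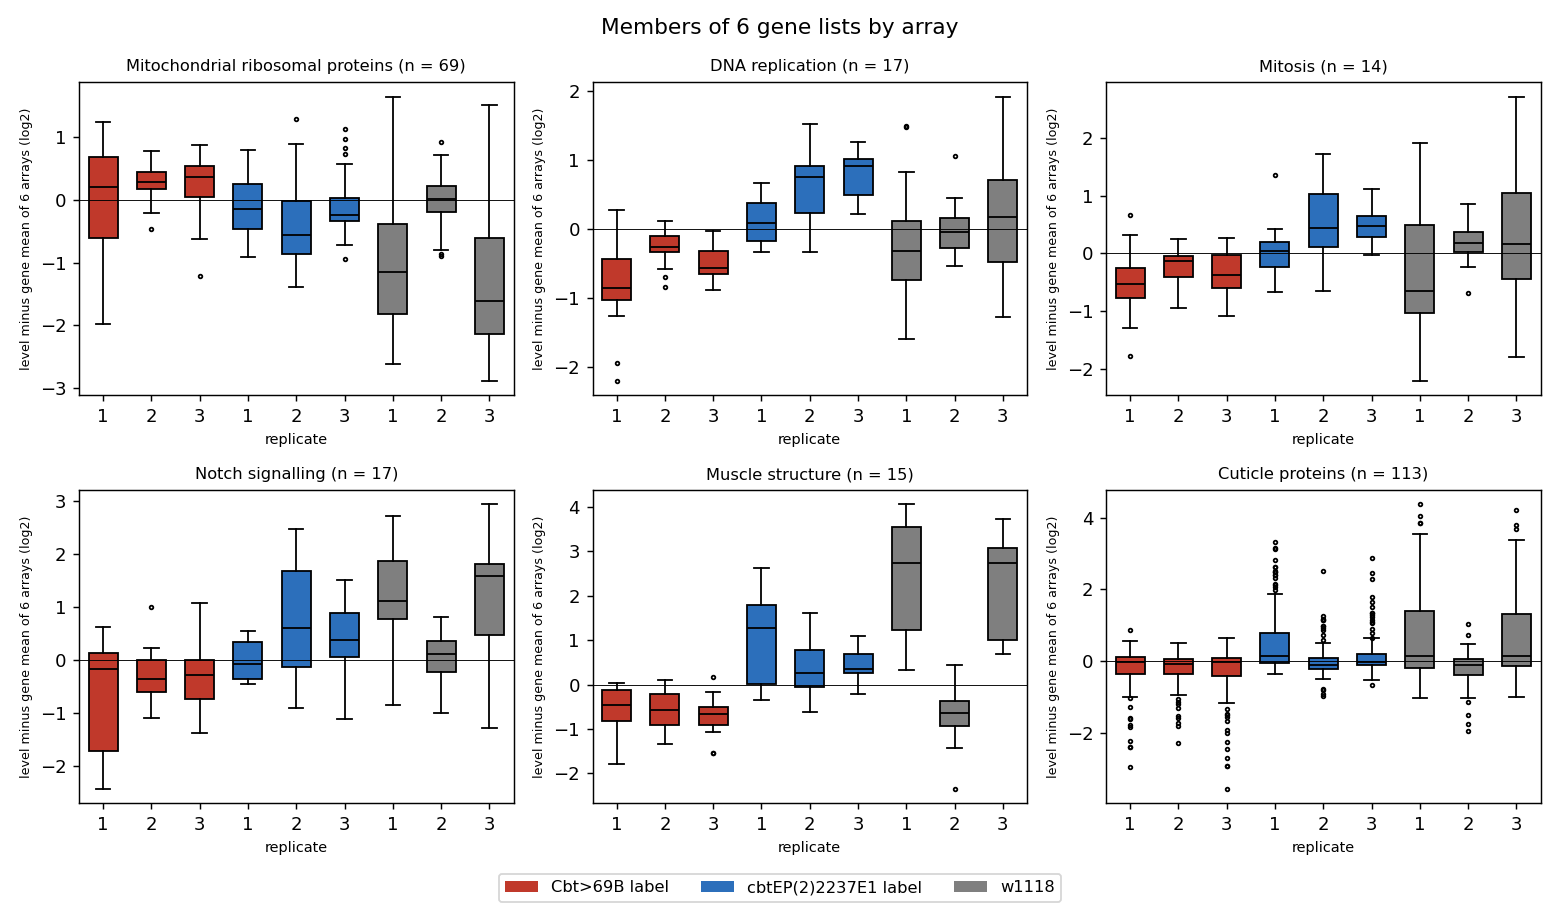
Level of each member of 6 gene lists minus that gene's mean over the 6 compared arrays (log2, vertical axis) on each of the 9 arrays. Red boxes are Cbt>69B, blue boxes cbtEP(2)2237E1 and grey boxes w1118 (replicates 1, 2 and 3 from left to right); boxes span the quartiles with the median as a line, whiskers reach 1.5 times the box, and points lie beyond. Mitochondrial ribosomal proteins sit higher in Cbt>69B, and DNA replication, mitosis and muscle genes lower, while w1118 replicate 2 differs from w1118 replicates 1 and 3.

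The respiratory chain was split. Of its 72 genes 16 rose and 10 fell, with a median of 0.20. With cyclic loess 11 rose and 12 fell. ND-B14.5A, a subunit of complex I, stood at 9.17, 8.54 and 8.79 in Cbt>69B, against 7.53, 6.83 and 7.68 in the mutant (difference 1.48, adjusted p = 0.0191). Subunits of the ATP synthase were among the falls, with ATPsynE at 5.22, 6.53 and 6.27 in Cbt>69B, against 7.97, 8.20 and 7.77 in the mutant (difference -1.97, adjusted p = 0.0176), and ATPsynC at -1.78. With Cbt>69B replicate 3 left out, 0 rose and 1 fell.

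Cytosolic translation was split as well. Of 41 cytosolic ribosomal protein genes 4 rose and 7 fell, with a median of 0.01. With cyclic loess 20 fell, at a median of -0.52. RpL28 stood at 6.74, 7.63 and 7.04 in Cbt>69B, against 9.63, 10.33 and 10.08 in the mutant (difference -2.88, SE 0.28, adjusted p = 0.00507), and RpL27 fell by 2.16. RpS19b and RpL37-2, each the second copy of a duplicated ribosomal protein gene, rose by 2.19 and 0.99. RpS19b stood at 5.07, 4.64 and 4.76 in Cbt>69B, against 2.95, 2.09 and 2.86 in the mutant. Of 40 translation initiation factors 3 rose and 8 fell. The largest fall, eIF3m, ranged widely, at 2.94, 6.30 and 5.56 in Cbt>69B, against 7.62, 8.25 and 8.49 in the mutant (difference -3.19, SE 0.82, adjusted p = 0.0485). eIF4B was at -2.80 on a dimmer probe set, against -0.43 on the brightest (adjusted p = 0.127), and eIF2D and eIF1 rose by 0.95 and 0.81.

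Of 30 aminoacyl-tRNA synthetases, which charge tRNAs, 5 rose and 1 fell, although the list median was -0.15, which turned to 0.14 with quantile normalization. HisRS rose by 1.33 and AlaRS by 1.23, and IleRS fell by 1.52. Among 40 proteasome genes 2 rose and 4 fell. Prosbeta3, a subunit of the core particle, stood at 2.12, 4.46 and 3.99 in Cbt>69B, against 6.93, 6.63 and 6.57 in the mutant (difference -3.19, adjusted p = 0.019), and the lid subunit genes moved apart, with Rpn5 at -2.39 and Rpn7 at 0.74. Prosalpha4T2 rose by 0.65 at levels near background. Of 31 vacuolar ATPase genes, which acidify organelles, 2 rose and 5 fell, with VhaAC45 at -2.27 and Vha55 at -1.87. VhaAC45RP, a paralog of VhaAC45, rose by 1.51, and Vha36-2 by 0.47, at background in both groups. The lists of cytosolic ribosomal proteins, proteasome, vacuolar ATPase and initiation factors held 0 calls without Cbt>69B replicate 3, and the synthetases held 2 rises.

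Of 10 heat shock and chaperone genes 1 rose and 5 fell. The small heat shock protein gene Hsp27 stood at 4.27, 4.58 and 4.48 in Cbt>69B, against 7.86, 7.95 and 7.18 in the mutant (difference -3.22, SE 0.22, adjusted p = 0.00198), and Hsp26, another of this family, fell by 3.12. The w1118 arrays were scattered for these genes, with Hsp26 at 3.20, 9.63 and 8.53. Hsp60A, the chaperonin of the mitochondrial matrix, stood at 10.21, 9.59 and 9.69 in Cbt>69B, against 8.81, 7.96 and 8.50 in the mutant, and rose by 1.41 (adjusted p = 0.0207). When Cbt>69B replicate 3 was left out, 0 rose and 1 fell.

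Among genes of metabolism, Pepck1, which encodes an enzyme of gluconeogenesis, stood at 4.94, 4.98 and 4.80 in Cbt>69B, against 6.87, 7.87 and 6.77 in the mutant (difference -2.27, adjusted p = 0.00968). The fatty acid synthase gene FASN1 fell by 1.71, whereas the fatty acid desaturase gene Desat1 and SREBP, a regulator of lipid synthesis, rose by 0.73 and 0.61. In all, 2 of the 12 genes of lipid and sugar sensing rose and 4 fell. In isoprenoid synthesis, which in flies makes juvenile hormone and lipid anchors, Fpps and Pmvk fell by 1.75 and 1.45, 2 of 5 genes. Of 69 glutathione and UDP-sugar transferases 5 rose and 7 fell, close to the shares of all genes. GstD3 and GstE14 rose by 2.60 and 2.33, and GstO2 and GstE1 fell by 2.64 and 2.20. Zip102B, a zinc transporter gene, stood at 3.02, 3.39 and 3.34 in Cbt>69B, against 4.80, 4.97 and 4.42 in the mutant (difference -1.48, adjusted p = 0.00856), and at 2.39, 2.25 and 1.78 in w1118, so here the mutant stood apart from both. Of 17 zinc transporters 2 rose, ZnT86D (0.98) and Zip48C (0.69), and 3 fell, among them ZnT77C (-1.29). No gene of the lipid and sugar, isoprenoid and zinc transporter lists passed without Cbt>69B replicate 3, and 1 transferase fell.

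In the Toll pathway, which patterns the embryo and later drives the response to microbes, 2 of 20 genes rose and 3 fell. The protease gene grass, upstream of the Toll ligand, stood at 4.05, 4.15 and 4.11 in Cbt>69B, against 2.75, 1.71 and 2.60 in the mutant (difference 1.75, adjusted p = 0.0137). cact, the inhibitor that holds Dorsal in the cytoplasm, fell by 2.33, and the receptor gene Tl by 0.99, while Def, which encodes the antimicrobial peptide defensin, rose by 0.54. Of 27 serpins 3 rose and 2 fell, with Spn42Da at 1.14 next after Spn28Da and Spn42De and Spn100A at -1.19 and -1.01. Of 212 chemoreceptor and odorant-binding protein genes, 127 of which were at background in both groups, 6 rose and 2 fell. Obp99b stood at 4.95, 4.84 and 4.76 in Cbt>69B, against 2.85, 1.83 and 2.66 in the mutant (difference 2.41, adjusted p = 0.00689), and Obp99c rose by 2.08. Obp56d and Obp44a fell by 2.58 and 2.41. The Toll and the chemoreceptor lists held 0 calls without Cbt>69B replicate 3, and the serpins held 1, Spn28Da.

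Germline genes of the piRNA pathway, which silences transposons, fell in 4 of 15 cases, and 0 rose. mael stood at 0.95, 1.09 and 1.26 in Cbt>69B, against 4.19, 3.94 and 3.98 in the mutant (difference -2.94, SE 0.13, adjusted p = 0.000338), and zuc fell by 1.41. The germ cell marker vas was at background on all 6 arrays. Of 29 testis genes, 22 were at background in both groups and 2 fell, Mst85C by 3.01 and mia by 1.40. Mst85C stood at 1.86, 2.60 and 2.67 in Cbt>69B, against 5.56, 5.74 and 4.85 in the mutant, and at 5.02, 5.12 and 6.04 in w1118. The defining testis markers Mst84Da, betaTub85D and dj were at background on all 6 arrays. Leaving out Cbt>69B replicate 3 left 1 falling gene in each of the germline and testis lists, mael and Mst85C.

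In the salivary gland list 2 of 11 genes rose and 1 fell. PH4alphaSG2, a prolyl hydroxylase of the gland, stood at 6.93, 6.51 and 6.66 in Cbt>69B, against 4.76, 4.06 and 4.08 in the mutant (difference 2.40, SE 0.22, adjusted p = 0.00466). sage, a regulator of the gland's secretory genes, rose by 0.95, and fkh, which sets up the gland, fell by 1.31. The summed level of the 2 salivary gland markers measured, sage and fkh, was 5.37 to 5.47 in Cbt>69B and 4.78 to 5.35 in the mutant. The groups were separated only narrowly (5.366 against 5.345), and the 2 markers moved in opposite directions. Of 17 neuronal genes 1 rose, fne (1.0), an RNA-binding protein of the ELAV family. The glial list had wrapper at 0.67 and moody, a receptor of the blood-brain barrier, at -1.85, 1 rise and 1 fall among 9. Of 11 blood cell genes 2 rose, PPO1, a prophenoloxidase of crystal cells (0.80), and NimC4, a receptor for apoptotic cells (0.70). GATAe of the midgut fell by 1.15. The summed marker levels of neurons (5.34 to 5.85 in Cbt>69B and 5.65 to 6.77 in the mutant), glia, trachea, blood cells and fat body overlapped between the groups. Without Cbt>69B replicate 3, PH4alphaSG2 alone of the genes in these tissue lists kept its call.

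In other signalling lists, 2 of 11 EGFR genes fell, the receptor gene Egfr (-1.96) and aop, and the MEK gene Dsor1 rose by 0.98. Of 12 Hippo genes 3 fell, among them the effector gene yki (-1.48) and the casein kinase gene dco (-1.54), and the scaffold gene sav rose by 1.16. In ecdysone signalling, spo and dib, which encode enzymes of hormone synthesis, fell by 1.54 and 1.22, and the nuclear receptor gene Hr39 rose by 0.81 on the brightest of its probe sets. The co-repressor list, whose products include partners of Krüppel-like factors, had 0 rises and 3 falls among 8, with HDAC1, a histone deacetylase, at -1.51 and bin3 at -1.40. In the list of Krüppel-like and Sp factors itself 1 of 9 rose, Klf15 by 0.59 (adjusted p = 0.049), and its median of -0.30 turned positive with quantile normalization (0.16) and cyclic loess (0.07). None of these lists held a call without Cbt>69B replicate 3.

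In the list of hnRNP and splicing regulators, where Hrb87F was the 1 rise among 15, 4 fell, with Hrb27C, an hnRNP gene, at -1.59 and the SR protein gene B52 at -1.58 on one of its probe sets. Of 9 Polycomb group genes 1 fell, phol, which encodes a DNA-binding member (-1.64). Of 8 cell death genes 1 fell, the effector caspase gene Dcp-1 (-1.64), and of 5 Hox and related genes 1, cad, which patterns the posterior (-1.43). Among 12 tubulin and microtubule genes 1 rose and 3 fell, and the rise was in Map205 (0.99), a microtubule-associated protein. The 2 largest falls were in Map60 (-1.18) and msps (-1.14), which bind microtubules as well. Of 9 clock genes 2 fell, dco and the transcription factor gene Pdp1 (-0.60). Of 9 glycolysis genes 1 fell on its brightest probe set, Pgi, the enzyme of the second step (-1.0). The aldolase gene Ald1 fell by 1.73 on a dimmer probe set (adjusted p = 0.00852) and was at -0.74 on its brightest one (adjusted p = 0.0701). Of 14 genes of ribosome biogenesis 2 fell, Ns2 (-0.70) and Nop60B (-0.62). Cytochrome P450 genes held 3 rises and 3 falls among 81, with Cyp6a16 at 1.45, Cyp309a1 at 1.11, Cyp6g1 at -1.54 and Cyp4c3 at -0.88. Each of these lists except the hnRNP list, where Hrb87F kept its call, held 0 calls without Cbt>69B replicate 3.

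Some lists gave no call in limma on the brightest probe sets. Of 18 gap and pair-rule genes, 14 genes of Wingless and Hedgehog signalling, 15 axon guidance genes, 6 fat body genes and 13 maternal egg transcripts, 0 passed. The members with the smallest p were hb at -1.16 (adjusted p = 0.0733), disp at -1.05 (0.0593), drl at -1.53 (0.0558) and Mtp at -1.06 (0.0963). In the maternal list Fs(2)Ket, the importin beta gene, fell by 1.93 on a dimmer probe set (adjusted p = 0.0339) and was at -0.52 on its brightest one. A miss at this threshold does not show that these genes were alike in both groups, and without mutant replicate 1, 7 gap and pair-rule, 4 Wingless and Hedgehog and 5 axon guidance genes fell.

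Where the w1118 arrays lay was asked for each called probe set, by the midpoint between the 2 group means. w1118 replicates 1 and 3 lay on the mutant side for most calls. They were on the Cbt>69B side for 9.75% and 5.0% of the rises and for 13.8% and 8.05% of the falls. Replicate 2 lay on the Cbt>69B side for 60.6% of the rises and 73.2% of the falls. It also lay apart from replicates 1 and 3 on the control measures given above. Whether this bears on these shares was not tested. All 3 w1118 arrays lay with the mutant for 34.6% of the rises and 20.8% of the falls, and with Cbt>69B for 3.73% and 4.45%. Among the 12 largest rises, 8 had all 3 w1118 arrays on the mutant side, and Actbeta and Hrb87F had all 3 on the Cbt>69B side. Among the 12 largest falls, CG18754 alone had all 3 on the Cbt>69B side.

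**Figure D5:**
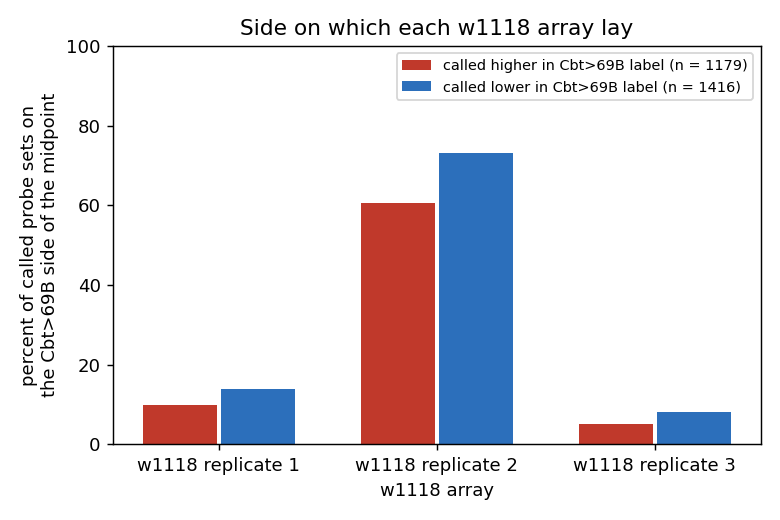
Percent of the called probe sets (vertical axis) for which each w1118 array (horizontal axis) lay on the Cbt>69B side of the midpoint between the 2 group means. Red bars are the 1179 probe sets called higher and blue bars the 1416 called lower in the arrays labelled Cbt>69B; w1118 replicate 2 reaches 60.6% and 73.2%, and replicates 1 and 3 stay at or below 13.8%.

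The differences also varied with the length of the gene. Among 5875 probe sets with a length and a mean level above 2, the median difference was 0.21 for genes of up to 1 kb, of which 185 rose and 82 fell among 660. It was -0.47 for genes of 4 to 8 kb, of which 70 rose and 205 fell among 999, and -0.21 for those over 16 kb. Across these genes, which are not independent replicates and share the same 6 arrays, Spearman's rho with length was -0.13. By chromosome, 16% to 17.3% of the probe sets on X, 2L, 2R, 3L and 3R were called, and 8.54% of the 82 on chromosome 4.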

How the data were processed

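RNA of 9 samples of dechorionated embryos was measured on Affymetrix Drosophila Genome 2.0 arrays. The authors deposited a log2 level for every probe set on every array. Per the submitters' processing notes, RMA, affy and limma were used, with no versions stated. Neither the chip definition nor a genome build is given there, so no coordinates or sequences are printed. The background step is not stated either. Over the 9 arrays the medians of the deposited levels were 0.85 to 1.06 and the upper quartiles 3.14 to 4.03. The arrays thus did not share one distribution, and how they were scaled to one another was not checked. The 183 Affymetrix controls were kept out, which left 18769 probe sets, and 13647 have 1 gene symbol in the platform annotation. Symbols were updated by gene ID for 13544 of them with RefSeq's table of Release 6 plus ISO1 MT.

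The 6 arrays were fitted with limma 3.58.1 in R 4.3.3 (lmFit, eBayes), with Benjamini-Hochberg adjustment over all probe sets. Without w1118, that split group does not set the spread. A group is called at background when no array of it exceeds that array's highest Tag control, and the brighter group is then "at least N-fold" higher. The fit was tested on simulated data, with 50 changes of each size among probe sets brighter than the median. It recovered 4% of changes of 0.5 log2 units, 38% of 1, 88% of 2 and 100% of 4, with 6 false calls. Most of these 50 changes of each size were thus missed at 0.5 and 1 unit. The adjusted p depends on how many probe sets differ, and 2595 were called in the 6 arrays. The share missed in the 6 arrays themselves was not tested. With 3 arrays in each group, precision is limited.

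Named genes are cbt, the 12 largest rises and 12 largest falls among called, non-overlapping probe sets with 1 symbol whose higher group mean exceeds the median of all probe sets, and up to 4 called members per list, or the members with the smallest p where a list has no call. Where several probe sets of a gene qualify, the larger difference is given. dpp, Doc2, Doc3, mam, the remaining Enhancer of split genes and those so marked in the text were added after their values were seen. The comparison, the gene lists and these rules were chosen with earlier results of these data known. The cytochrome P450 list was corrected after the data were seen, since its pattern also took in cyclophilins. Alternatives covered scaling, filters on dim probe sets, moderation, array weights, the replicate number as a block, all 9 arrays, gene length and leaving out each array. A planned search for promoter motifs was not run, for want of a promoter table.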

Additional observations from a re-analysis of the deposited data

Results flagged for a closer look

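Among 100 control probe sets for transcripts that are no part of the tested set, 2 stood at least 1 log2 unit higher on every mutant array than on every w1118 array. The first, at 1.08, 1.10 and 1.15 in Cbt>69B, stood at 5.93, 5.72 and 4.74 in the mutant, whose lowest array was thus at 4.74, and at 0.59, 1.10 and 1.13 in w1118. The second, at 1.61, 1.01 and 0.86 in Cbt>69B, stood at 2.51, 2.61 and 4.53 in the mutant, with the lowest array at 2.51, and at 0.46, 0.92 and 0.70 in w1118. The target of these controls is not named by the annotation used here. The database number in the first one's array name may be that of a GFP vector, which was not checked. The mutant embryos were labelled as those without GFP, so their genotype carries this doubt.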

How the results depend on the processing

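The count of 2595 calls (1179 higher and 1416 lower in Cbt>69B) lay between 137 and 3423 when single arrays were left out, with 68 to 1213 higher and 69 to 2210 lower, and that of calls of at least 1 log2 unit (1594) between 136 and 2287. With array weights 4089 were called (1806 higher and 2283 lower). In a fit of all 9 arrays, where w1118 adds to the spread, 48 were called (22 higher and 26 lower), 45 of them of at least 1 unit. At a size of 2 units 308 remained by construction. With quantile normalization 851 were lower. The share of higher among called was also moved by equal medians (850 higher and 1691 lower), and cyclic loess gave 1150 higher and 1223 lower. The difference of cbt, -0.91, passed when dim probe sets were left out, by the Tag controls (adjusted p = 0.0423) or by the median level (adjusted p = 0.0405). Fewer probe sets were then tested, and the moderation was fitted anew. The difference of cbt was smaller with quantile normalization (-0.46, adjusted p = 0.328), cyclic loess (-0.59, 0.197) and array weights (-0.58, 0.151). The causes of these changes were not tested. With the replicate number as a block 2967 probe sets were called, and the difference of cbt stayed at -0.91 (adjusted p = 0.102). Whether the replicate numbers pair the arrays was left undecided. The deviations of same-numbered arrays from their group means correlated at 0.15, 0.26 and -0.09. Cbt>69B replicates 1 and 2 correlated best with the mutant array of their own number, and replicate 3 with mutant replicate 2 (0.07). Deviations within a group cancel, so these correlations depend on one another and cannot exclude pairing. None of the 158 named calls, nor the difference of cbt, changed sign under any alternative run. The filters, the moderation, the replicate block and the fit of all 9 arrays leave a difference unchanged by construction. Leaving out or weighting arrays cannot reverse a gene whose groups do not overlap. For such genes only the scalings and the length fit could have turned the sign. The predominance of falls did turn with quantile normalization. The medians of all probe sets and of many lists changed sign with some scalings. Among these lists were the amnioserosa, mesoderm, axon guidance, fat body, midgut, salivary gland, testis, gap and pair-rule and Hox lists. The rest were the Krüppel-like, ecdysone, serpin, cell death, clock, cytosolic ribosomal, synthetase, glycolysis, isoprenoid, zinc transporter, cytochrome P450 and transferase lists. Of the 158 named calls, 19 held under every alternative other than the fit of all 9 arrays, 9 in that fit and 8 under every alternative. Signal over background limits the low end, since 29 of the rises were at background in both groups.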
